A study of Mus musculus with 54 samples.

Results

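The transcripts of 47 genes of the cell division cycle were followed across the sides of cultured mouse follicles: 18 genes of the G1/S transition and DNA replication and 29 genes of mitosis. They were taken by gene symbol from tables that list 25149 genes, and the split into 18 and 29 follows what the genes are known to do. The 47 genes themselves were chosen with earlier results of these data known. Of the 29 genes of mitosis, 7 are on a list that the study drew from these libraries. Each of the 47 symbols matched a single row.

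The study asked how the wall of the preovulatory follicle differs between the region that ruptures at ovulation and the region that does not. Secondary follicles of CD-1 female mice aged 14 to 16 days were grown in an alginate hydrogel for 8 days and then placed for 12 h in maturation medium with or without human chorionic gonadotropin (hCG), the hormone used in place of the luteinizing hormone surge. Each follicle was then cut into its sides, and RNA from individual sides was read with Smart-Seq2. The groups were putative unruptured sides (unrupture_nohCG, n = 15) and putative ruptured sides (rupture_nohCG, n = 14) from medium without hCG, and unruptured sides (unrupture_hCG, n = 12) and ruptured sides (rupture_hCG, n = 13) post-hCG. The mouse strain, age, culture and maturation medium were shared by all 4 groups, including 10% fetal bovine serum, 10 ng/ml epidermal growth factor and 10 mIU/ml recombinant FSH, and the added hCG was 1.5 IU/ml. Without hCG no follicle had ruptured, so those sides were assigned from follicle shape and are called putative. A follicle grown in alginate has no blood supply, and the labels do not say which libraries came from the same follicle, animal or culture, so p-values measure only the spread between these libraries.

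The libraries held 1497071 to 2834734 counts each (median 2157092). The putative ruptured libraries were the shallowest, at 1497071 to 2028982 counts against 1506980 to 2657045 for the putative unruptured, 1777104 to 2386552 for the unruptured post-hCG and 1766651 to 2834734 for the ruptured post-hCG libraries. The tissue label is cumulus-oocyte complex, yet by the methods that complex was discarded. The summed level of 12 oocyte markers was at or under 10 TPM (the authors' level, scaled for transcript length and library size) in all but 6 of the 54 libraries, 4 of them putative unruptured, 1 putative ruptured and 1 unruptured post-hCG, and each count below was repeated without those 6.

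A dividing cell commits to a new round of replication in G1, when D-type and E-type cyclins switch on their kinases and the E2F factors induce the genes that load and fire replication origins. The genes of mitosis are transcribed later, in G2, from promoters that commonly carry CCAAT boxes and a cell cycle homology region (CHR), and their transcripts are cleared as the cell returns to G1. In the ovary the dividing cells of a growing follicle are mainly its granulosa cells, which proliferate under FSH with cyclin D2 as their principal D-type cyclin and leave the cell cycle after the surge of luteinizing hormone as they luteinize.

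Promoters of both classes were searched for these motifs, and a few are shown so that the counts can be read against the bases themselves. RefSeq windows of GRCm38.p6, from 250 bases before to 50 bases after the transcript start, were held for 38 of the 47 genes, 25 mitotic and 13 G1/S and replication genes. Prc1, Ect2 and Mcm7 had 2 windows each, and a gene counted if either matched, whereas shares of all windows count each window alone. A CHR (TTTGAA or TTCGAA on either strand) lay in windows of 19 of the 25 mitotic genes and of 2 of the 13 G1/S and replication genes, and in 19.2% of all 32851 windows. A CCAAT box (CCAAT on either strand) lay in those of 20 of 25 and of 8 of 13 genes, beside 37.4% of all windows. Both motifs were present for 18 of 25 mitotic genes and for 2 of 13 of the others, beside 7.52% of all windows. An E2F motif (TTTCCCGC, TTTCGCGC, TTTGCCGC or TTTGGCGC on either strand) was present for 1 of 25 mitotic genes, Cdk1, and for 6 of 13 of the others, Cdc6, Cdt1, Mcm3, Mcm5, Mcm6 and Mcm7, beside 2.26% of all windows. A match describes these letters only and is not a mapped binding site. The stretches below run from 160 bases before to 30 bases after the start, 5′ to 3′ on the strand of the gene, with every CHR, CCAAT and E2F match in capitals. Cenpa, Ube2c, Cdk1 and Cdc20 are shown as mitotic genes that were higher on the ruptured sides in both media, and Mcm6, Mcm5 and Mcm3 as replication genes that were lower post-hCG on both sides. Other genes that met these criteria are not shown. Of these, Bub1b, Ccnb2, Plk1 and Top2a had a CHR and a CCAAT box and no E2F motif, while some others divide less cleanly. Ccnb1, higher in both media, had a CCAAT box but no CHR, and Mad2l1 had neither. Mcm7, lower on both sides, had a CHR.
Cenpa at chr5:30666726-30666915, plus strand: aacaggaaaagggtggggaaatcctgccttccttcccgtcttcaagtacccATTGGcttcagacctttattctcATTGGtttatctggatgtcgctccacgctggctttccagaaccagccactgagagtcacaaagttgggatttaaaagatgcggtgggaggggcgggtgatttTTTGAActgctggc
Ube2c at chr2:164769769-164769958, plus strand: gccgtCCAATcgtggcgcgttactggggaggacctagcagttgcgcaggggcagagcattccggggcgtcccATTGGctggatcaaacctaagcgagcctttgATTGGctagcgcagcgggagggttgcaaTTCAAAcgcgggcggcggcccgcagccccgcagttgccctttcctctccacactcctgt
Cdk1 at chr10:69352883-69353072, minus strand: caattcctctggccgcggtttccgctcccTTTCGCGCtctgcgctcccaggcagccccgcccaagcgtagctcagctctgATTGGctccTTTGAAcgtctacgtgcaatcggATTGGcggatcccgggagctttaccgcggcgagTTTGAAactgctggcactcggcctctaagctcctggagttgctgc
Cdc20 at chr4:118437314-118437503, minus strand: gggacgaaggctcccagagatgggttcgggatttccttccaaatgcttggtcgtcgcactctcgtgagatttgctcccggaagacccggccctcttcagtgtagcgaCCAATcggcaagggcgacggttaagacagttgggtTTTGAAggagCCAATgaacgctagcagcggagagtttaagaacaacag
Mcm6 at chr1:128359676-128359865, minus strand: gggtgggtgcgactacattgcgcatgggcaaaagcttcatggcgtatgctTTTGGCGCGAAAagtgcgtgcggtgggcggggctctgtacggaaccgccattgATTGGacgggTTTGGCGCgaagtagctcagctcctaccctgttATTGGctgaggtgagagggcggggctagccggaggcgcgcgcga
Mcm5 at chr8:75109349-75109538, plus strand: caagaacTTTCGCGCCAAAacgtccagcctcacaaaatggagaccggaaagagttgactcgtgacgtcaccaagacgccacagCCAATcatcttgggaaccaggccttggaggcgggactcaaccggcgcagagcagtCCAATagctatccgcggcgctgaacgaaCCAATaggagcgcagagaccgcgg
Mcm3 at chr1:20820283-20820472, minus strand: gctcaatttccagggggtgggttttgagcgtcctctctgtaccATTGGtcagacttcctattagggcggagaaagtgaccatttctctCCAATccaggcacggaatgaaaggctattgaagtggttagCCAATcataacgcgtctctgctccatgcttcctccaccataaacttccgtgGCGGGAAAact
In Mcm6 and Mcm5 a pair of E2F matches overlap and read as a longer run of capitals. Cdk1, whose product drives entry into mitosis, carries both kinds of motif in this stretch.

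Mitotic transcripts were the more variable of the classes, between the sides and between libraries. The mean of log2(TPM + 1) over the 18 G1/S and replication genes was 2.01 ± 0.29 (SD, n = 15) in the putative unruptured, 1.996 ± 0.271 (n = 14) in the putative ruptured, 1.90 ± 0.20 (n = 12) in the unruptured post-hCG and 1.75 ± 0.21 (n = 13) in the ruptured post-hCG libraries. For the 29 mitotic genes the same mean was 1.23 ± 0.53, 1.85 ± 0.48, 0.88 ± 0.31 and 1.26 ± 0.37 in that order. The mitotic mean minus the G1/S mean within a library was −0.78 ± 0.35 in putative unruptured and −0.15 ± 0.32 in putative ruptured libraries, and post-hCG it was −1.02 ± 0.27 in unruptured and −0.49 ± 0.22 in ruptured libraries. All 14 putative ruptured libraries lay above the median of the putative unruptured libraries in this difference, 9 of them above every putative unruptured library, and all 13 ruptured libraries post-hCG lay above the median of the unruptured ones, 8 of them above every unruptured library. These are bulk measurements of a follicle side, in which fewer dividing cells and less RNA per cell cannot be told apart.

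**Figure D1:**
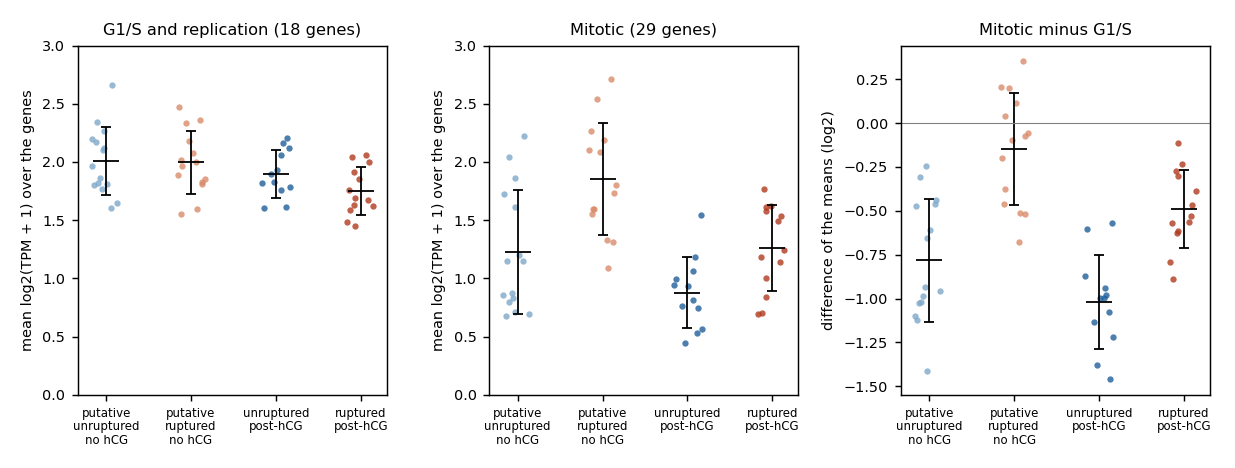
Mean log2(TPM + 1) of the 18 G1/S and replication genes and of the 29 mitotic genes, and the mitotic mean minus the G1/S mean, in each of 54 libraries. Points are libraries, and bars give the mean and SD of each of the 4 groups. The G1/S means of the 4 groups lie between 1.75 and 2.01 and the mitotic means between 0.88 and 1.85.

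Without hCG, the comparison of sides asks whether the region expected to rupture differs when hCG is absent. That medium still held epidermal growth factor, FSH and serum. Mitotic transcripts were higher on the putative ruptured side, and transcripts of replication were for the most part at like levels on both sides. With edgeR on genes that passed the expression filter, 14 of the 17 mitotic genes tested were higher on the putative ruptured side and 0 lower, with a median log2FC of 1.12, where 8.84% of all 9063 genes tested were higher and the median was −0.01. The filter removes low genes and can keep a gene on the libraries of 1 group alone, here and in each comparison below. A count over filtered genes can therefore lean toward genes that differ. The fit was repeated with no filter on all 29 mitotic genes. Of these 16 were higher and 0 lower at an FDR of 0.05, beside 3.94% of 20998 genes. In that fit all 29 log2FC values were positive, from 0.33 to 1.76, with a median of 1.02. Of the 16 genes called, 6 are among the 7 that the study had listed as higher on that side from these libraries. The other 10 are not on that list.

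Ccnb1, Ccnb2 and Cdk1, whose products form mitosis-promoting factor, were higher on the putative ruptured side. Ccnb1, cyclin B1, ran from 0.35 TPM through a median of 2.02 to 7.16 TPM in putative unruptured libraries and from 2.84 through 7.63 to 20.9 TPM in putative ruptured ones. The ranges overlapped, and all 14 putative ruptured libraries exceeded the putative unruptured median. Its log2FC was 1.54 ± 0.31 (SE, FDR = 0.000632). Its kinase partner Cdk1 ran from 2.22 through 5.81 to 17.1 TPM and from 2.6 through 13.3 to 25.8 TPM, a log2FC of 1.01 ± 0.30 (FDR = 0.0169) with 12 of 14 libraries above the other side's median. Ccnb2 had a log2FC of 1.60 ± 0.40 (FDR = 0.0049), while Ccna2, cyclin A2, which acts from S phase into early mitosis, had 0.90 ± 0.35 and an FDR of 0.074, and passed without replicate 7 of the putative unruptured side (1.13, FDR = 0.0199) or replicate 10 of the putative ruptured side (0.98, FDR = 0.0482).

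The spindle checkpoint and the anaphase-promoting complex, which together time the separation of chromatids, had 5 of 6 members higher in the fit without a filter. Ube2c, the ubiquitin-conjugating enzyme of that complex, had the largest log2FC of the 17 tested, 1.78 ± 0.37 (FDR = 0.000886). It ran from 0.41 through 5.96 to 18.2 TPM on the putative unruptured and from 6.52 through 20.8 to 64 TPM on the putative ruptured side, so every putative ruptured library lay above the median of the other side although the ranges overlapped. Cdc20, its activator, ran from 1.96 through 3.83 to 14.9 TPM and from 4.37 through 10.3 to 25.9 TPM, with a log2FC of 0.94 ± 0.30 (FDR = 0.0293). Mad2l1, a checkpoint protein that holds Cdc20 in check, had a log2FC of 0.70 ± 0.21 (FDR = 0.018), and the checkpoint kinases Bub1 and Bub1b, which did not pass the filter, had 1.15 ± 0.36 (FDR = 0.0414) and 1.15 ± 0.35 (FDR = 0.0333). Ttk, the sixth gene, had 0.92 ± 0.40 and an FDR of 0.168. Cdc20 was no longer past the threshold without replicate 8 (log2FC 0.75, FDR = 0.0727) or replicate 6 (0.83, FDR = 0.0623) of the putative ruptured side, and Plk1, the polo kinase at 1.11 ± 0.35 (FDR = 0.0257), without replicate 6 of that side (0.96, FDR = 0.0632).

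Kinetochore genes had 3 of 6 members higher in the unfiltered fit. Cenpa, the histone H3 variant that marks centromeres, was the gene with the lowest FDR, at a log2FC of 1.60 ± 0.30 (FDR = 0.000309). Its level ran from 0.75 through 1.77 to 7.12 TPM on the putative unruptured and from 1.75 through 6.78 to 18.7 TPM on the putative ruptured side, with 13 of 14 libraries above the other side's median. The kinetochore motor Cenpe (1.46 ± 0.34, FDR = 0.00255) and the microtubule-binding Ndc80 (1.73 ± 0.39, FDR = 0.00272, no filter) were also higher. Spindle and cytokinesis genes had 3 of 7 members higher in the unfiltered fit, Kif23, Tpx2 and Prc1, with log2FC values of 1.11 to 1.19, whereas Ect2, the exchange factor that starts the cleavage furrow, had 0.50 ± 0.33 and an FDR of 0.415. Top2a, the topoisomerase that untangles replicated chromosomes, ran from 0.4 through 1.27 to 11 TPM and from 1.9 through 5.57 to 14.1 TPM (log2FC 1.29 ± 0.32, FDR = 0.00484). The proliferation marker Mki67 was low throughout, at 0.06 through 0.16 to 0.98 TPM against 0.16 through 0.485 to 1.17 TPM. Its log2FC of 0.83 ± 0.28 passed at an FDR of 0.0378, but not with no filter (FDR = 0.0592) or when any of 16 of the 29 libraries was left out, the highest FDR being 0.0848 without replicate 12 of the putative ruptured side.

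The G1/S and replication genes gave a different picture. Of the 12 that passed the filter 1 was higher on the putative ruptured side and 0 lower, with a median log2FC of −0.00, where 17.8% of all genes tested were called in either direction. With no filter 0 of all 18 were called by edgeR, where 8.49% of all genes were, 3 had an unadjusted p under 0.05, and the median log2FC was 0.04. DESeq2 called Rrm2 alone, as higher, and limma on log2(TPM + 1) called Gins2 alone, as lower, among 1054 of 9876 genes that it called. The gene called with the filter was Rrm2, the ribonucleotide reductase subunit whose level varies over the cell cycle, at a log2FC of 0.88 ± 0.31 (FDR = 0.0453). It ran from 0.47 through 2.43 to 9.95 TPM on the putative unruptured and from 1.62 through 4.08 to 10.8 TPM on the putative ruptured side, and leaving out any of 19 of the 29 libraries ended the call, the highest FDR being 0.0988 without replicate 8 of the putative ruptured side.

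Among the subunits of the MCM helicase, which is loaded at origins in G1, log2FC values ran from −0.28 ± 0.13 for Mcm6 to 0.12 ± 0.19 for Mcm3, and none was called with or without the filter. Mcm6 ran from 4.99 through 6.85 to 14.4 TPM and from 3.51 through 6.55 to 8.8 TPM. Mcm2 ran from 1.57 through 3.2 to 6.47 TPM and from 1.82 through 3.17 to 7.35 TPM, and the approximate 95% interval of its log2FC was −0.41 to 0.19. For both genes the ranges of the sides overlapped over most of their length. Gins2, a subunit of the complex that activates the helicase, was the lowest of the 12, at −0.49 ± 0.20 and an FDR of 0.0826. Without replicate 5 of the putative ruptured side it passed (−0.59, FDR = 0.0306), and it also passed without replicate 14 of the putative unruptured side (−0.54, FDR = 0.0393). Pcna, the sliding clamp of the replication fork, ran from 3.23 through 6.25 to 13.1 TPM and from 3.25 through 6.21 to 14.5 TPM (log2FC 0.11 ± 0.23, 95% interval −0.33 to 0.56). The thymidylate synthase gene Tyms and the large reductase subunit Rrm1 had −0.05 ± 0.17 and 0.12 ± 0.12.

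Of the G1 cyclins, Ccnd2 was the most abundant in TPM, at 3.11 through 14.1 to 49 TPM on the putative unruptured and 7.34 through 12.7 to 63.5 TPM on the putative ruptured side. Its log2FC was −0.31 ± 0.20 (FDR = 0.304). Ccnd1 and Ccne1 were near the lower end of detection, with medians of 0.35 and 0.19 TPM and of 1.09 and 0.85 TPM, and neither they nor Ccne2 passed the filter or the unfiltered test.

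Markers of other cells and libraries moved with the sides as well. Of 10 granulosa cell markers 7 had a higher median on the putative ruptured side and 2 a lower one, and their summed level ran from 1606 to 7704 TPM on the putative unruptured and from 5947 to 23019 TPM on the putative ruptured side. Inha weighs most in that sum, with medians of 2594 TPM on the putative unruptured and 9027 TPM on the putative ruptured side. The 2 lower ones were Foxl2, at 1.66 and 1.62 TPM, and Amhr2, at 37.9 and 32.5 TPM. The sum is therefore not a measure of granulosa cell content. All 10 markers of theca and stroma had a lower median on the putative ruptured side, at a summed level of 4.73 to 602.6 TPM against 33.7 to 2811 TPM. Of 6 cumulus cell markers 5 had a higher and 1 a lower median on the putative ruptured side, at a summed level of 34.3 to 138.6 TPM against 17.7 to 70.5 TPM. Their part in the difference of the mitotic genes was not tested. Without the 6 libraries with oocyte markers 14 of 17 mitotic genes tested, and 16 of 29 with no filter, were higher.

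**Figure D2:**
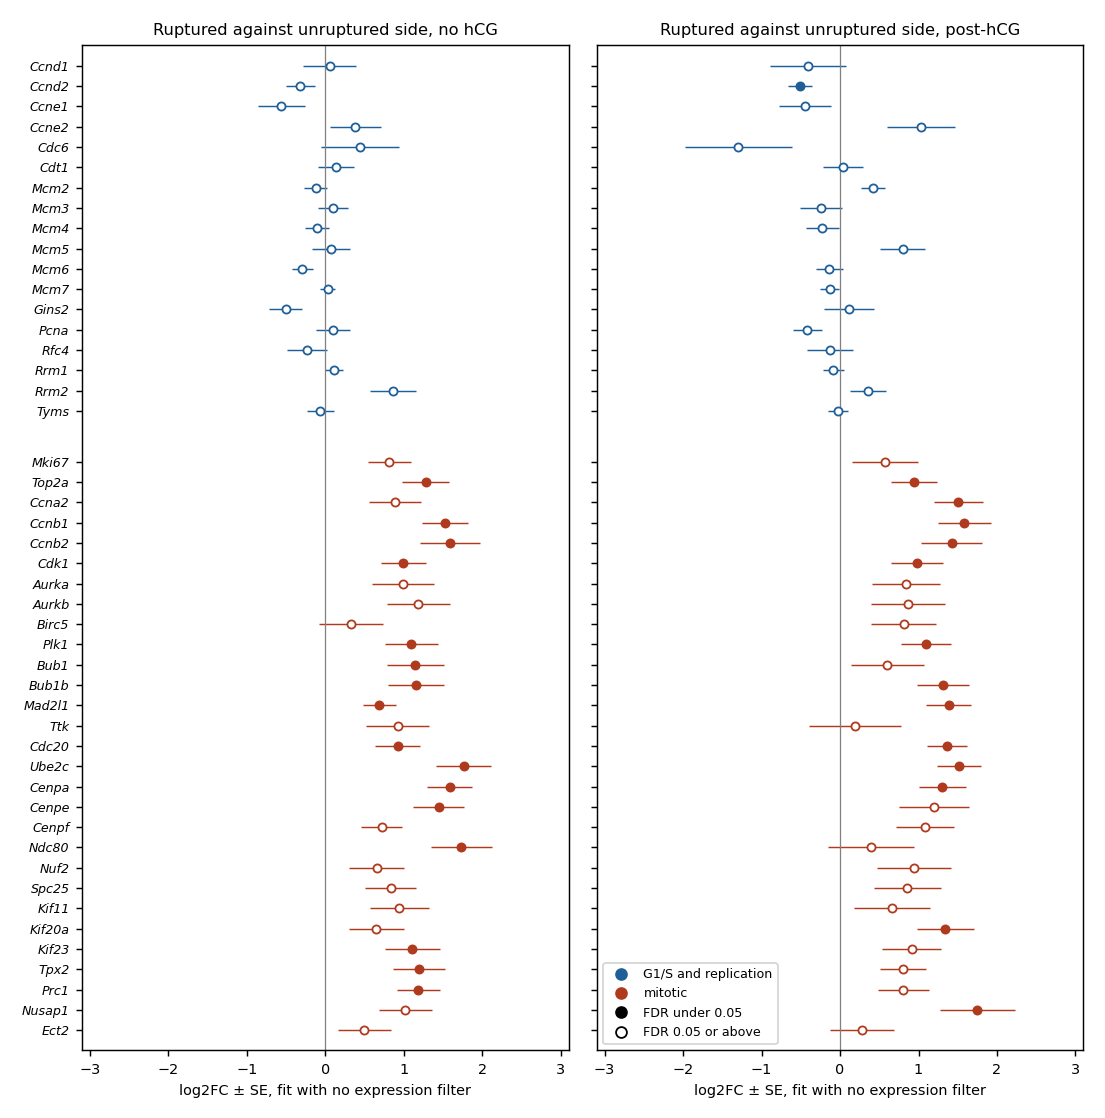
Log2FC of the ruptured over the unruptured side for each of the 47 genes, without hCG and post-hCG, from edgeR with no expression filter. Points are genes with bars of 1 SE, and filled points passed an FDR of 0.05. Mitotic genes lie to the right of 0 in both media, from 0.33 to 1.76 without hCG and from 0.19 to 1.75 post-hCG.

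Post-hCG, when the ruptured side had opened, the comparison of sides was made on other libraries and shared none with the comparison above. Mitotic transcripts were again higher on the ruptured side. Of the 8 that passed the filter 7 were higher and 0 lower, with a median log2FC of 1.33. Of all 8585 genes tested 21.4% were called in either direction, and 47.0% of those called were higher. With no filter 13 of all 29 were higher and 0 lower, beside 4.45% of 20349 genes, and all 29 log2FC values were positive, from 0.19 to 1.75 with a median of 0.95. The genes called without a filter in both media were 10 of the 16 called without hCG and of the 13 called post-hCG: Bub1b, Ccnb1, Ccnb2, Cdc20, Cdk1, Cenpa, Mad2l1, Plk1, Top2a and Ube2c. The share of all genes called in both media is not given here, so this overlap only names the genes.

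By role, all 4 mitotic cyclin and CDK1 genes and 4 of 6 checkpoint and anaphase-promoting complex genes were higher, against 1 of 6 kinetochore and 2 of 7 spindle and cytokinesis genes, in the fit without a filter. Every value of these roles was positive, with median log2FC values of 1.46, 1.34, 1.02 and 0.81 in that order. Only 1 kinetochore and 1 spindle and cytokinesis gene had counts that passed the filter, so the numbers called do not rank the roles by size of difference. Cdc20 ran from 0.39 through 2.4 to 3.92 TPM on the unruptured and from 1.99 through 4.35 to 11.9 TPM on the ruptured side, with 12 of 13 ruptured libraries above the unruptured median (log2FC 1.35 ± 0.27, FDR = 0.000373). Ube2c ran from 2.1 through 3.21 to 9.3 TPM and from 2.97 through 10.9 to 23.7 TPM, also with 12 of 13 above (1.51 ± 0.30, FDR = 0.000422). For both genes the ranges of the sides overlapped. Ccna2 ran from 0.12 through 1.29 to 2.94 TPM and from 0.54 through 3.12 to 6.25 TPM (1.49 ± 0.33, FDR = 0.00123), and Ccnb1 from 0 through 1.21 to 3.72 TPM and from 0.42 through 3.94 to 8.14 TPM (1.57 ± 0.36, FDR = 0.00168). Cenpa had a log2FC of 1.30 ± 0.31 (FDR = 0.0027), at 0.53 through 2.71 to 4.7 TPM against 1.33 through 6.17 to 12.7 TPM. These 5 genes stayed past the threshold whichever library was left out. Top2a (0.93 ± 0.33, FDR = 0.0381) and Cdk1 (0.97 ± 0.35, FDR = 0.0457) did not: leaving out any of 11 of the 25 libraries for Top2a, or of 9 for Cdk1, ended the call, at most to an FDR of 0.0731 without replicate 12 of the ruptured side and of 0.0711 without replicate 9 of the unruptured side. Prc1, which bundles the microtubules of the central spindle, was the gene that passed the filter and was not called (0.80 ± 0.35, FDR = 0.109), and it passed without replicate 4 of the unruptured side (1.05, FDR = 0.0306). That library held the highest TPM of its group for 16 of the 29 mitotic genes and is the unruptured library with oocyte markers, at 10.3 TPM. It also had its group's highest summed markers of theca and stroma (1337 TPM), immune cells (96.7 TPM) and surface epithelium (14.3 TPM). The part of these cells was not tested. Without that library, 8 of 8 mitotic genes tested and 18 of 29 with no filter were higher.

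Of the 11 G1/S and replication genes that passed the filter 0 were higher and 1 was lower on the ruptured side, with a median log2FC of −0.14, where 11.3% of all genes were lower. With no filter 0 of all 18 were higher and 1 was lower, beside 6.34% of all genes. The gene called was Ccnd2, cyclin D2, at a log2FC of −0.53 ± 0.17 (FDR = 0.0216). It was no longer past the threshold without replicate 11 of the unruptured side (−0.40, FDR = 0.0532) or when all 4 groups were fitted together (−0.51, FDR = 0.0569), nor in limma on log2(TPM + 1) (−0.53, FDR = 0.368) or log2(TPM + 0.1) (−0.56, FDR = 0.362). Its deposited TPM and counts do not rank the libraries alike: replicate 1 of the unruptured side had 206 TPM and 57.7 CPM (counts scaled to the library total), and replicate 11 had 53.0 TPM and 113 CPM. On the ruptured side, replicates 10 and 11 had 135 and 100.1 TPM with 49.3 and 33.6 CPM, and the other 11 libraries had at most 19.8 TPM with 28.5 to 55.9 CPM.

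The remaining replication genes did not pass the test. Mcm2 had a log2FC of 0.41 ± 0.16 (FDR = 0.0587) and was called higher without any of 4 libraries: replicates 4 (0.47, FDR = 0.0325), 10 (0.44, FDR = 0.0471) and 12 (0.47, FDR = 0.0323) of the unruptured and 13 (0.48, FDR = 0.0106) of the ruptured side. Mcm5, which did not pass the filter, had 0.80 ± 0.29 (FDR = 0.066, no filter). Pcna pointed the other way, at −0.43 ± 0.18 (FDR = 0.0941), and was called lower without replicate 3 of the unruptured (−0.50, FDR = 0.0436) or 13 of the ruptured side (−0.52, FDR = 0.0402). It ran from 2.75 through 5.78 to 8.47 TPM on the unruptured and from 0.82 through 3.2 to 5.77 TPM on the ruptured side, and all 13 ruptured libraries lay below the unruptured median. Of the granulosa cell markers 5 had a higher and 3 a lower median on the ruptured side, at summed levels of 1011 to 2233 TPM on the unruptured and 881 to 1653 TPM on the ruptured side, and 9 of 10 theca and stroma markers were lower, at 73.7 to 1337 TPM against 1.99 to 54.0 TPM. Their part was not tested.

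The comparisons of media ask what hCG changed on each side. On the unruptured side, with follicles kept in medium without hCG as the reference, both classes were lower post-hCG, and the helicase genes led the replication class. Of 13 G1/S and replication genes that passed the filter 6 were lower and 0 higher, with a median log2FC of −0.33, where 27.7% of all 9320 genes tested were lower and 53.1% called in either direction. With no filter 5 of all 18 were lower, beside 15.9% of 20960 genes. Of 7 mitotic genes that passed the filter 4 were lower and 0 higher, with a median of −1.12, and with no filter 10 of all 29 were lower, with 28 of 29 values negative and a median of −0.86. Many other genes fell too, so a count of G1/S and replication genes is to be read against those shares.

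Mcm6 had the lowest FDR of the 47 genes on this side. It ran from 4.99 through 6.85 to 14.4 TPM without hCG and from 1.87 through 4.21 to 6.7 TPM post-hCG, with all 12 post-hCG libraries below the median of the reference, and fell by 1.15 ± 0.15 on the log2 scale (FDR = 8.92e-08). Mcm5 fell furthest of the helicase genes, from 0.76 through 1.88 to 7.03 TPM to 0.14 through 0.57 to 1.43 TPM (log2FC −1.62 ± 0.29, FDR = 2.03e-05), again with all 12 libraries below the reference median and with ranges that overlapped. Mcm3 (−0.79 ± 0.21, FDR = 0.0021), Mcm4 (−0.58 ± 0.20, FDR = 0.0138) and Mcm7 (−0.33 ± 0.11, FDR = 0.0106) fell less. The sixth subunit, Mcm2, had −0.36 ± 0.16 and an FDR of 0.0526, which passed when any of 8 libraries was left out, the lowest FDR being 0.024 without replicate 12 of the putative unruptured side. Gins2 was the other gene called (−0.64 ± 0.26, FDR = 0.0354), a call that was lost with no filter (FDR = 0.058) and when any of 8 libraries was left out, the highest FDR being 0.0685 without replicate 7 of the unruptured side post-hCG. No gene of the replication fork was called on this side: Pcna had −0.30 ± 0.21 (FDR = 0.232), Rrm2 0.07 ± 0.29, Rrm1 −0.22 ± 0.11 and Tyms 0.30 ± 0.16. Rrm1 passed without replicate 2 of the unruptured side post-hCG (−0.29, FDR = 0.0188) and Tyms without replicate 7 of the putative unruptured side (0.37, FDR = 0.0386). Ccnd2 had 0.41 ± 0.21 (FDR = 0.0908) from the counts, and passed without replicate 2 of the post-hCG side (0.48, FDR = 0.0457) or without replicate 2 or 7 of the reference (0.50 each, FDR = 0.0379 and 0.0337). On log2(TPM + 1) with limma its difference was 1.07 (FDR = 0.0174).

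All 4 mitotic cyclin and CDK1 genes fell on the unruptured side in the fit without a filter. Cdk1 fell from 2.22 through 5.81 to 17.1 TPM to 0.74 through 3.48 to 9.18 TPM (log2FC −1.27 ± 0.33, FDR = 0.00151), and Ccna2 from 0.56 through 1.89 to 6.55 TPM to 0.12 through 1.29 to 2.94 TPM (−1.42 ± 0.42, FDR = 0.00483). In each case 10 of 12 post-hCG libraries lay below the reference median and the ranges overlapped. Cdc20 (−1.14 ± 0.33, FDR = 0.00414) and Ccnb1 (−1.12 ± 0.41, FDR = 0.0216) were also called. Mad2l1, with medians of 1.58 and 0.46 TPM, fell by 1.56 ± 0.29 with no filter (FDR = 5.01e-05). Ube2c (−0.59 ± 0.39, FDR = 0.205), Top2a (−0.63 ± 0.39, FDR = 0.178) and Prc1 (−0.57 ± 0.35, FDR = 0.172) were not called with all libraries. Without replicate 4 of the unruptured side post-hCG, Top2a had −0.95 (FDR = 0.0375) and Prc1 −0.82 (FDR = 0.0467). That library had oocyte markers and also the highest summed markers of theca and stroma of its group. Without the 5 libraries with oocyte markers in this comparison 2 of 4 mitotic genes tested and 12 of 29 with no filter were lower, and 4 G1/S and replication genes, or 5 of 18 with no filter, were lower and 1 was higher, Ccnd2 at 0.55 (FDR = 0.042).

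On the ruptured side, whose reference was the putative ruptured side without hCG, the fall took in more of both classes. Of 11 G1/S and replication genes that passed the filter 7 were lower post-hCG and 0 higher, with a median log2FC of −0.51, where 30.4% of all 8531 genes tested were lower and 60.1% called in either direction. With no filter 8 of all 18 were lower, beside 17.8% of 20569 genes. Of 14 mitotic genes that passed the filter 12 were lower and 0 higher, with a median of −0.86, and with no filter 23 of all 29 were lower, all 29 values being negative with a median of −0.95. Called without a filter on both sides were 9 mitotic genes, out of 10 on the unruptured and 23 on the ruptured side, and 5 replication genes, Mcm3 to Mcm7, out of 5 and 8. The share of all genes called on both sides is not given here, so this overlap names the genes and is no result about the classes.

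Of the 6 helicase genes 5 fell on this side too, and Mcm2 was not called. Mcm6 ran from 3.51 through 6.55 to 8.8 TPM without hCG and from 1.25 through 2.75 to 6.97 TPM post-hCG (log2FC −1.01 ± 0.16, FDR = 1.59e-06). Mcm3 ran from 0.56 through 2.04 to 6.21 TPM and from 0.4 through 1.1 to 1.87 TPM (−1.15 ± 0.24, FDR = 0.000132), with all 13 post-hCG libraries below the reference median and ranges that overlapped. Mcm7 (−0.51 ± 0.10, FDR = 9.8e-05), Mcm4 (−0.72 ± 0.17, FDR = 0.000534) and Mcm5 (−0.90 ± 0.24, FDR = 0.0021) were also lower. Mcm2 had 0.17 ± 0.15 (FDR = 0.343), at 1.82 through 3.17 to 7.35 TPM against 1.1 through 2.92 to 8.89 TPM, and its value had the other sign when libraries were scaled by their totals alone (−0.14, FDR = 0.436). Cdc6, which loads the helicase, had counts in 11 of 14 libraries without hCG and in 3 of 13 post-hCG, 25 and 5 counts in all, and its log2FC with no filter was −1.97 ± 0.62 (FDR = 0.0107).

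Replication fork genes divided. Pcna was lower on the ruptured side post-hCG, from 3.25 through 6.21 to 14.5 TPM to 0.82 through 3.2 to 5.77 TPM, with all 13 libraries below the reference median (log2FC −0.83 ± 0.22, FDR = 0.00153), and Rrm1 was lower as well (−0.42 ± 0.14, FDR = 0.00828). Tyms had 0.32 ± 0.14 (FDR = 0.0543), at 2.34 through 10.2 to 19.1 TPM against 6.77 through 12.7 to 20.9 TPM, and it passed as higher when any of 8 libraries was left out, the lowest FDR being 0.0204 without replicate 12 of the putative ruptured side, its library with oocyte markers. Ccnd2 had 0.20 ± 0.16 (FDR = 0.268).

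Of the mitotic genes on the ruptured side, those called came from every role. Ccnb2 ran from 0.77 through 4.59 to 13.9 TPM without hCG and from 0 through 1.73 to 3.24 TPM post-hCG, with all 13 post-hCG libraries below the reference median (log2FC −1.56 ± 0.37, FDR = 0.000563). Cdk1 (−1.29 ± 0.32, FDR = 0.000925) and Ccnb1 (−1.07 ± 0.28, FDR = 0.00128) fell by like amounts. Cenpe ran from 0.32 through 0.67 to 2 TPM and from 0 through 0.23 to 2.42 TPM (−1.43 ± 0.32, FDR = 0.000262), and Mad2l1 from 1.57 through 3.38 to 8.08 TPM and from 0.4 through 1.43 to 3.22 TPM (−0.86 ± 0.19, FDR = 0.000269). The motor-driven and bundling genes of the spindle followed, 6 of 7 in the unfiltered fit, with Kif23 at −1.15 ± 0.26 (FDR = 0.000548) and Kif11 at −1.24 ± 0.33 (FDR = 0.0028). Mki67 had −1.02 ± 0.29 with no filter (FDR = 0.00474). The calls of Cdc20 (−0.71 ± 0.27, FDR = 0.0232) and Ube2c (−0.85 ± 0.32, FDR = 0.0217) were lost without replicate 8 of the putative ruptured side (−0.52, FDR = 0.0644, and −0.61, FDR = 0.0675).

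Some mitotic genes lay near 0, Cenpa on both sides. On the ruptured side it had −0.08 ± 0.30 (FDR = 0.838), with medians of 6.78 TPM without hCG and 6.17 TPM post-hCG and a 95% interval of −0.67 to 0.52. On the unruptured side it had 0.21 ± 0.30 with no filter (FDR = 0.637), the only positive value of the 29, with medians of 1.77 and 2.71 TPM. The checkpoint gene Bub1b had −0.05 ± 0.30 (FDR = 0.916) on the ruptured side and −0.22 ± 0.40 (FDR = 0.719) on the unruptured side with no filter, and Plk1 −0.49 ± 0.27 (FDR = 0.118) on the ruptured side. Plk1 passed there without replicate 12 of the ruptured side post-hCG (−0.66, FDR = 0.03).

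**Figure D3:**
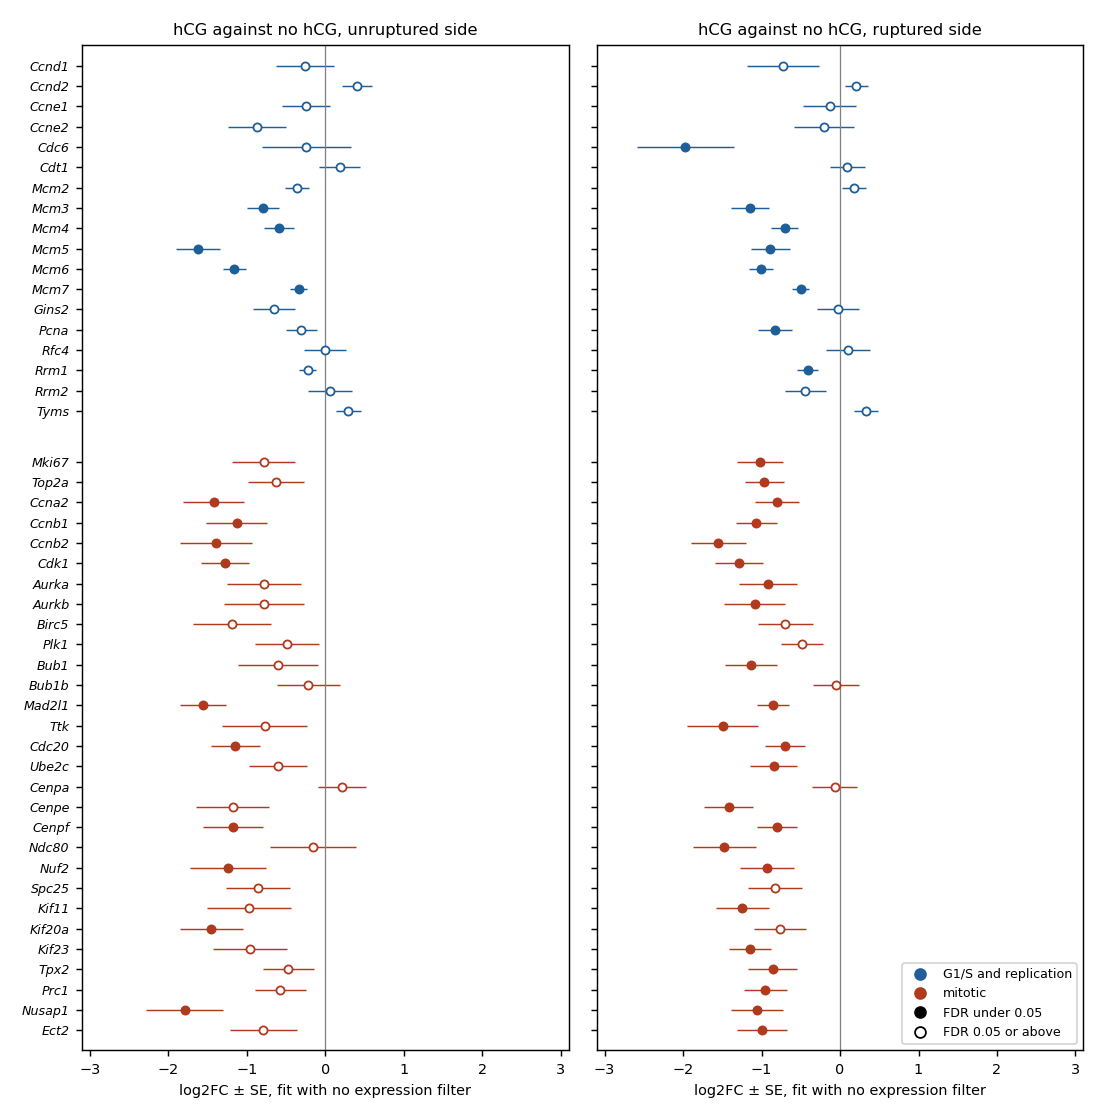
Log2FC of medium with hCG over medium without hCG for each of the 47 genes, on the unruptured and on the ruptured side, from edgeR with no expression filter. Points are genes with bars of 1 SE, and filled points passed an FDR of 0.05. Genes called lower are 5 and 8 of the 18 G1/S and replication genes and 10 and 23 of the 29 mitotic genes, and Cenpa lies near 0 on both sides.

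The tool, the scaling and single libraries bear on these counts. DESeq2 called 14.5% and 16.2% of the genes it tested between the sides without hCG and post-hCG, and 39.7% and 43.0% for hCG on the unruptured and the ruptured side. With libraries scaled by their totals alone, the median log2FC of all genes moved by −0.22 on the unruptured and by −0.32 on the ruptured side, and the share of called genes that were higher went from 47.8% to 27.5% and from 49.4% to 24.5%. In the comparison of sides post-hCG it moved by −0.15, and the share went from 47.0% to 17.8%. Without hCG the shift was −0.05, and the share went from 49.7% to 39.3%. Most granulosa cell markers had lower medians post-hCG, 7 of 10 on the unruptured and 8 of 10 on the ruptured side, with 2 and 1 higher. So did 8 and 9 of 10 theca and stroma markers, with 2 and 0 higher. The share of counts from mitochondrially encoded genes was 7.38% ± 1.85 (SD) on the putative unruptured side and 4.44% ± 0.94 on its post-hCG counterpart, and 6.88% ± 1.22 on the putative ruptured side and 4.12% ± 0.92 on its counterpart. The part of these in the fall was not tested. Without the library with oocyte markers on the ruptured side 11 of 13 mitotic genes tested and 20 of 29 with no filter were lower, and 7 G1/S and replication genes, or 8 of 18 with no filter, were lower and 1 was higher, Tyms.

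**Figure D4:**
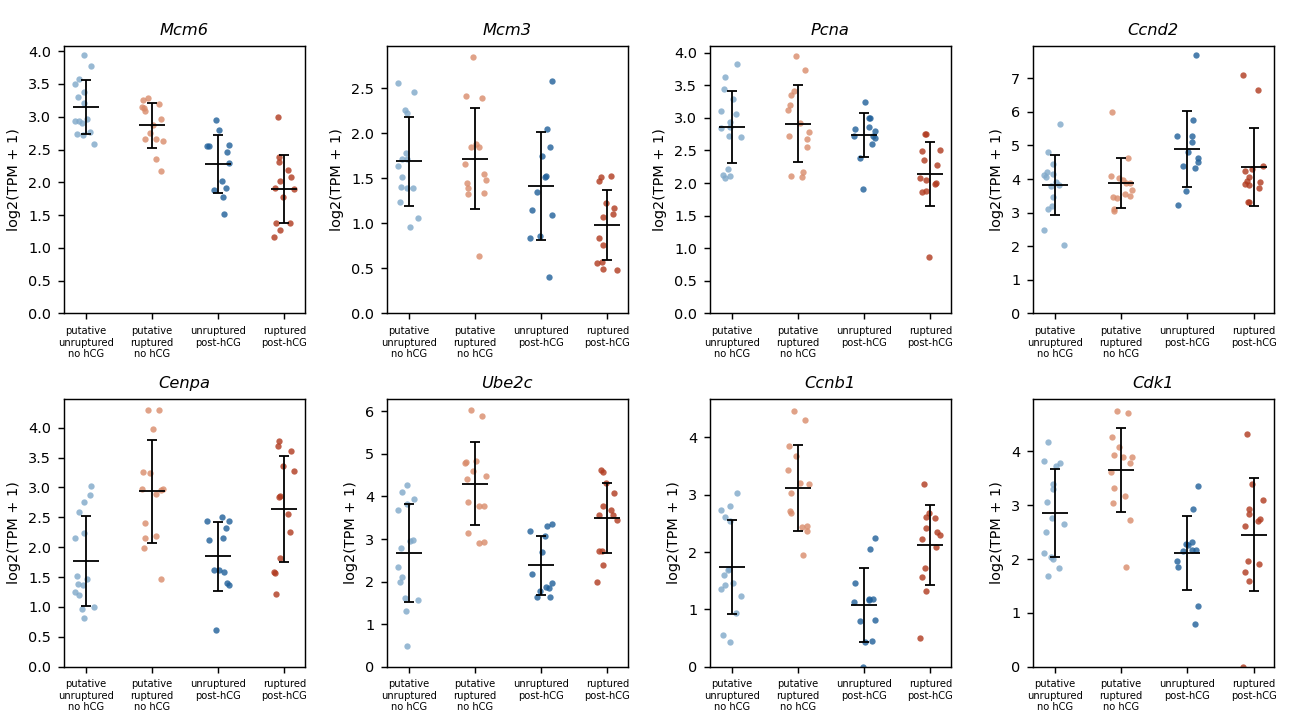
Log2(TPM + 1) of Mcm6, Mcm3, Pcna, Ccnd2, Cenpa, Ube2c, Ccnb1 and Cdk1 in each of the 54 libraries, by group. Points are libraries, and bars give the mean and SD of a group. Mcm6 lies lower post-hCG on both sides, at medians of 4.21 and 2.75 TPM against 6.85 and 6.55 TPM, and Cenpa higher on the ruptured sides, at medians of 6.78 and 6.17 TPM against 1.77 and 2.71 TPM.

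Whether hCG acted differently on the sides was tested by the interaction of side and hCG over all 54 libraries, which contains the same libraries as the 4 comparisons above. No gene was called: edgeR called 0 of 13 G1/S and replication genes and 0 of 21 mitotic genes that passed the filter, and 0 of 18 and 0 of 29 with no filter, beside 8.91% of 10013 genes and 3.21% with no filter. With the filter 1 and 0 of them had an unadjusted p under 0.05, with no filter 2 and 0, and DESeq2 called 0 and 0, beside 8.31% of all genes. Without the libraries with oocyte markers the counts were again 0. A larger number of mitotic genes called lower on the ruptured side is therefore not shown to be a different response to hCG. The gene with an unadjusted p under 0.05 was Mcm2, at 0.52 ± 0.22 (p = 0.0212, FDR = 0.13). Next came Mcm5 (0.71 ± 0.39, FDR = 0.277) and Pcna (−0.54 ± 0.31, FDR = 0.299) among the replication genes, and Mad2l1 (0.68 ± 0.35, FDR = 0.226), Kif20a (0.67 ± 0.55, FDR = 0.506) and Nusap1 (0.71 ± 0.61, FDR = 0.534) among the mitotic genes. The 95% interval was 0.09 to 0.95 for Mcm2, −0.79 to 0.88 for Ccnb1, −1.19 to 0.59 for Cenpa and −0.30 to 0.57 for Mcm6. These intervals are wide, and an FDR above the threshold does not show that the sides responded alike.

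The genes around these in the pathway were counted by the same fits. The cyclin-dependent kinase inhibitor Cdkn1a (p21), which halts cells in G1 and G2, was abundant and moved in every comparison. It ran from 28.4 through 60.3 to 114 TPM on the putative unruptured, from 40.6 through 182 to 334 TPM on the putative ruptured, from 119 through 286 to 464 TPM on the unruptured post-hCG and from 274 through 369 to 580 TPM on the ruptured post-hCG side. The unruptured libraries with and without hCG did not overlap, while the other pairs of groups compared did. Its log2FC was 1.62 ± 0.20 between the sides without hCG (FDR = 1.8e-06), 0.65 ± 0.19 between the sides post-hCG (FDR = 0.0141), 2.18 ± 0.22 for hCG on the unruptured side (FDR = 4.11e-10) and 1.23 ± 0.18 for hCG on the ruptured side (FDR = 6.88e-07). In both media the side with more mitotic transcripts also had more Cdkn1a transcript. A gene on the opposite strand overlaps Cdkn1a, and whether the counting used strand is not given in the sources used here. The inhibitor Cdkn1b (p27) was at 0.08 ± 0.17 (FDR = 0.815) between the sides without hCG, −0.45 ± 0.16 (FDR = 0.0464) post-hCG, and −0.48 ± 0.17 (FDR = 0.0192) and −0.996 ± 0.173 (FDR = 9.56e-06) for hCG on the unruptured and ruptured sides. Cdkn2d (p19) rose with hCG by 1.59 and 1.71 on those sides.

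The lists of other genes were drawn up with earlier results of these data known. That of other mitotic genes includes Stil, Incenp, Dlgap5, Gtse1 and Kif2c, which the study had reported from these libraries as higher on a putative or actual ruptured side. Its counts are therefore not independent evidence. Of 69 other mitotic genes listed for this purpose 27 were higher and 0 lower on the putative ruptured side with no filter, with a median log2FC of 0.89, and 18 were higher and 0 lower post-hCG, with a median of 0.73, beside 3.94% and 4.45% of all genes higher. They included Hjurp, the chaperone that deposits Cenpa, at 1.03 ± 0.17 without hCG (FDR = 4.27e-05), and the condensin subunit Smc4, at 0.81 ± 0.18 without hCG (FDR = 0.0014) and 0.57 post-hCG (FDR = 0.000373). Of 46 other replication genes 2 were higher and 0 lower without hCG and 1 and 0 post-hCG, shares near those of all genes, the kinase subunit gene Dbf4, which triggers origin firing, passing in both (0.74, FDR = 0.00386, and 0.61, FDR = 0.0172). Post-hCG, 13 of the 69 mitotic genes were lower and 3 higher on the unruptured side and 28 lower and 3 higher on the ruptured side, and 13 and 14 of the 46 replication genes were lower and 2 higher on each, where 15.9% and 17.8% of all genes were lower. The 13 of 69 on the unruptured side is near that share. Among those that rose, on the unruptured side the centromere protein gene Cenpm rose by 2.46 (FDR = 5.74e-09) and the condensin gene Ncapd2 by 1.72 (FDR = 2.93e-07), and Ncapd2 rose by 1.47 on the ruptured side. Among the G1 kinases and transcription factors Ccnd3, cyclin D3, rose by 1.48 (FDR = 3.58e-12) and 1.89, and Tfdp2, an E2F partner, fell by 1.53 (FDR = 7.89e-12) and 1.67. Ccnd2 was not called on either side by edgeR with all libraries. On the unruptured side a higher call depended on the tool and the libraries, as given above.

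Within a group, mitotic genes varied together from library to library. Over the 19 mitotic genes that averaged 1 TPM or more, the median pairwise Pearson correlation of log2(TPM + 1) was 0.65, 0.66, 0.44 and 0.55 in the putative unruptured, putative ruptured, unruptured post-hCG and ruptured post-hCG libraries. For 15 G1/S and replication genes it was 0.40, 0.29, 0.14 and 0.20, and between the classes 0.43, 0.38, 0.19 and 0.31. The points share their libraries, depth and TPM scaling, so these values are a description over 12 to 15 libraries. Of the 47 genes 22 overlap another annotated gene in GENCODE vM21, 18 of them on the other strand, and 4, Ccnb1, Ccnb2, Tyms and Pcna, have named pseudogenes with which reads could be shared. Cenpa, the mitotic gene with the lowest FDR between the sides without hCG, and Mcm6, the replication gene with the lowest FDR for hCG, lie at chr5:30666777-30674830 (Cenpa, plus strand) and chr1:128331590-128359664 (Mcm6, minus strand) in GRCm38, and no other annotated gene overlaps either.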

How the data were processed

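RNA from 54 single follicle sides was made into Smart-Seq2 libraries, which the authors mapped to GRCm38 using HISAT2, and they corrected counts for batches with ComBat-seq. The deposited expected counts are estimated counts per gene with fractions, 72.2% of the nonzero values being whole, and the deposited TPM values were scaled by the authors for transcript length and library size. The counting program, its use of strand and whether either table precedes the batch correction are not given in the sources used here. All columns matched a sample. Rounded counts were the input of edgeR 4.0.16 (R 4.3.3): expression filter (minimum count 10, minimum total 15), TMM scaling, quasi-likelihood F-test and Benjamini-Hochberg FDR of 0.05 over all genes tested. The main design fitted only the 2 groups compared, or all 4 groups for the interaction, with no batch term, since the labels give no batch. Each comparison was refitted with no filter so that all members with a count entered.

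A log2FC is given with its SE, and 95% intervals use a normal approximation. Levels are TPM, summarised on log2(TPM + 1) with a pseudocount of 1 in pandas 2.3.3 and numpy 2.4.6. Alternatives were DESeq2 1.42.0, limma 3.58.1 on log2(TPM + 1) and log2(TPM + 0.1), size factors, library totals, a mean of 20 counts, thinning to 1497071 counts, 1 fit over all 4 groups, a replicate block, leaving out each library and, added after the data were seen, leaving out 6 libraries with over 10 TPM of oocyte markers. The fits were tested on simulated data with 200 genes changed. There edgeR found 90% to 93% of genes changed 2-fold in the comparisons of 2 groups and 65% in the interaction. These shares are for the genes that passed the expression filter as a whole. Recovery was not worked out for the cell cycle genes alone, some of which did not pass that filter. The shares therefore do not give how often a 2-fold change in the cell cycle genes would be called.

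The members, the lists of pathway genes and markers and the rule for named genes were chosen with earlier results of these data known. In each comparison of 2 groups the text names the 3 members of each class with the lowest FDR, the members Mki67, Top2a, Pcna, Mcm2, Ccnb1, Cdk1, Ccnd1, Ccnd2 and Ccne1, exceptions to their class, the inhibitors Cdkn1a and Cdkn1b and, from the pathway lists, genes among the 3 with the lowest FDR per list, and in the interaction the 3 members of each class with the smallest p. Other members named as examples of their role were chosen after their values were seen. Motifs were searched as exact letters on both strands.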

Additional observations from a re-analysis of the deposited data

Results flagged for a closer look

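Among the genes of the surrounding pathway that passed the expression filter, edgeR's test of the interaction of side and hCG over all 54 libraries called 1 of 6 CDK inhibitor and retinoblastoma family genes, 2 of 12 G1 kinase and transcription factor genes, 0 of 35 other replication genes and 2 of 32 other mitotic genes, beside 8.91% of all genes tested. These shares are no contrast with the members, of which none was called. The interaction log2FC is the response on the ruptured side minus that on the unruptured side. Cdkn1a rose less on the ruptured side, with a difference of −0.96 ± 0.29 (FDR = 0.0261) between responses of 1.23 and 2.18. Cdk2, the kinase partner of cyclin E, had a difference of −0.50 (FDR = 0.0412) between −0.45 and 0.05. Tfdp1, an E2F partner, had a difference of 0.53 (FDR = 0.00628) between 0.84 and 0.31. Hjurp, the chaperone of Cenpa, fell more on the ruptured side, with a difference of −1.04 (FDR = 0.00345) between −1.62 and −0.59. Its median level was 2.7 TPM on the putative unruptured, 4.88 TPM on the putative ruptured, 2.21 TPM on the unruptured post-hCG and 1.64 TPM on the ruptured post-hCG side. Wee1, the kinase that restrains Cdk1, had a difference of 1.10 (FDR = 0.0416) between −0.38 and −1.48. With no filter Cdk2 (FDR = 0.108) and Wee1 (FDR = 0.0764) were no longer past the threshold, while Cdkn1a (FDR = 0.0426), Tfdp1 (FDR = 0.0135) and Hjurp (FDR = 0.00652) were. Genes on the other strand overlap Cdkn1a, Cdk2 and Wee1.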

How the results depend on the processing

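Of the refits of 99 single-gene results 1072 kept direction and side of the threshold, 100 lost it, 26 gained it and 10 moved without a call. Counts of genes called changed as follows, given as G1/S and replication genes or mitotic genes. Between the sides without hCG the 1 G1/S call became 0 with library totals, no filter, thinning, the replicate block or without oocyte libraries, and 1 gene in the other direction, Gins2, with limma at either pseudocount and without replicate 14 of the putative unruptured or 5 of the putative ruptured side (range 0 to 1 on leaving out 1 library). The 14 mitotic calls became 6 with a mean of 20 counts, 8 thinned, 7 with limma on log2(TPM + 1) and 8 on log2(TPM + 0.1) (range 11 to 16). Post-hCG the 1 G1/S call became 2 with DESeq2, library totals, limma, the replicate block or without oocyte libraries, 0 with all 4 groups, and 3, mostly higher, with no filter and no oocyte libraries (range 0 to 3). The 7 mitotic calls became 14 with DESeq2, 13 with no filter, 2 with a mean of 20 counts or thinned, 12 with all 4 groups and 18 with no filter and no oocyte libraries (range 5 to 8). For hCG on the unruptured side the 6 G1/S calls became 3 with a mean of 20 counts or limma (range 5 to 8), and the 4 mitotic calls 11 with DESeq2, 10 with no filter or all 4 groups, 0 with a mean of 20 counts or thinned, and 2 or, with no filter, 12 without oocyte libraries (range 4 to 6). For hCG on the ruptured side the 7 G1/S calls became 4 with a mean of 20 counts (range 7 to 8), and the 12 mitotic calls 24 with DESeq2, 23 with no filter, 7 with a mean of 20 counts and 20 with no filter and no oocyte libraries (range 9 to 13). Fewer genes are tested at a mean of 20 counts and after thinning, and more with no filter or DESeq2. The cause of the other changes was not tested. Libraries with the same replicate number did not vary alike: 1 of 14, 2 of 12, 1 of 12 and 1 of 13 pairs correlated over 0.1, and 2, 2, 2 and 1 libraries correlated best with their own number. The check looks only for deviations in the same direction, so it does not show whether a number marks the sides of a follicle. With the replicate block the mitotic calls were 14, 6, 4 and 12 and the G1/S calls for hCG 6 and 7. Low counts limit Mki67, Ccnd1 and Cdc6 most.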

Other observations

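In the putative unruptured group replicate 2 was highest for 10 of the 29 mitotic and 7 of the 18 G1/S and replication genes. In the putative ruptured group replicate 6 was highest for 8 mitotic genes and replicate 8 for 7 mitotic and 6 G1/S and replication genes. Among the unruptured libraries post-hCG replicate 4 was highest for 16 mitotic genes and replicate 8 for 5 G1/S and replication genes, and among the ruptured libraries post-hCG replicate 12 was highest for 8 mitotic genes and replicates 3 and 11 for 4 G1/S and replication genes each.

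Of 13 cell cycle genes that the study listed from these samples 7 are members. The study set that list under mitotic processes, among genes higher on the putative ruptured side but not on the ruptured side post-hCG. A further name on that list, Kifc, matches no symbol in the tables and was left out. With no filter 6 of those 7 and 10 of the other 22 mitotic genes were higher on the putative ruptured side, and the first count is not independent evidence, since the study chose that list on these libraries. Plk1, a member on that list, was called here in both media with no filter. The study also lists cell proliferation genes among those higher on the putative unruptured side only.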
